A study of Mus musculus with 768 samples.

Results

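The genes of fatty acid synthesis were followed in single sorted cells of the mouse mammary gland. 10 genes were taken by name: the enzymes Acly, Acaca, Fasn, Olah, Elovl6, Scd1 and Scd2, and the regulators Srebf1, Insig1 and Thrsp. All 10 were found among the 23997 gene names of the count tables. Each of 2 plates of 384 wells held cells of 1 genotype on the C57BL/6 background. The control plate came from mice with WAP-CRE and R26-tdTomato, and the other from mice with WAP-CRE and R26-N1ICD-EGFP. WAP-CRE, carried by both groups, is a Cre recombinase under the Wap promoter, a milk gene promoter of alveolar luminal cells. Its activity leaves red tdTomato in control cells. In the other group it turns on N1ICD, the intracellular domain of Notch1 that signals without a ligand, along with green EGFP. Inguinal glands were taken at what the submitters describe as 3 to 4 months and lactation, and reporter-positive cells were sorted into single wells. The comparison asks what active Notch1 does to the cells in which this Cre had acted. No animal is named, so each plate counts as 1 sample, and there are no tests or p-values below. Plate, genotype and reporter cannot be told apart.

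In the lactating gland, alveolar luminal cells make part of the fat of milk from glucose. Acly turns citrate into cytosolic acetyl-CoA, Acaca carboxylates it to malonyl-CoA, and Fasn builds palmitate from both. The thioesterase Olah releases shorter chains from Fasn, which gives milk its medium-chain fatty acids. Elovl6 lengthens palmitate, and the desaturases Scd1 and Scd2 put in the first double bond. Srebf1 encodes SREBP-1, the transcription factor that switches on most of these enzymes. Insig1 holds the SREBP precursors in the endoplasmic reticulum and is itself an SREBP target, and Thrsp (Spot14) is a small protein that promotes lipogenesis in liver, fat and mammary gland.

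8 of the 10 members matched the RefSeq promoter table of GRCm38.p6, with 10 promoters in all because Srebf1 has 3. Each runs from 250 bases before to 50 bases after a transcription start. 4 are printed 5′ to 3′ on the gene's own strand: Fasn and Acly, which were lower together on the N1ICD-EGFP plate, Insig1, for which these data set no direction, and Olah, which was almost unread there. Capitals mark matches, on either strand, to the sterol response element TCACNCCAC, the E-box CACGTG and the NF-Y motif CCAAT, the last read as ATTGG on the other strand. The windows are chr11:120824498-120824797 for Fasn (minus strand), chr11:100527951-100528250 for Acly (minus strand), chr5:28071162-28071461 for Insig1 (plus strand) and chr2:3366520-3366819 for Olah (minus strand).
Fasn: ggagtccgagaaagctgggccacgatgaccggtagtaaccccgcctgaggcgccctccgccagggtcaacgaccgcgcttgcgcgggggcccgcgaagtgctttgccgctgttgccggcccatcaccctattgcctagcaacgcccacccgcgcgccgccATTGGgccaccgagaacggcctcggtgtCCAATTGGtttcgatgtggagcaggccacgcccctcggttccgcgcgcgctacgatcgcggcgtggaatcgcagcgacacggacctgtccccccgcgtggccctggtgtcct
Acly: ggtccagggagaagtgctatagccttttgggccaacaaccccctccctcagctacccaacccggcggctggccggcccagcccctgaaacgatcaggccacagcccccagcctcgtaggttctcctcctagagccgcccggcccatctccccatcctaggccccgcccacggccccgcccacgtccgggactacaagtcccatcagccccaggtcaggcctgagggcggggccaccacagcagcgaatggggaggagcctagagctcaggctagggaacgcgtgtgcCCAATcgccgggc
Insig1: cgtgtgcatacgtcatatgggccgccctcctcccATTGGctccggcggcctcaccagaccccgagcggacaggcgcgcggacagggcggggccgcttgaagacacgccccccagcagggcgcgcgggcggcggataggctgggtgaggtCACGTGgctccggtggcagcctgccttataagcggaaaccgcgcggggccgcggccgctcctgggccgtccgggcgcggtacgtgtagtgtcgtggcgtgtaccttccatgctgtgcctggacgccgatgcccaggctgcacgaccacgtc
Olah: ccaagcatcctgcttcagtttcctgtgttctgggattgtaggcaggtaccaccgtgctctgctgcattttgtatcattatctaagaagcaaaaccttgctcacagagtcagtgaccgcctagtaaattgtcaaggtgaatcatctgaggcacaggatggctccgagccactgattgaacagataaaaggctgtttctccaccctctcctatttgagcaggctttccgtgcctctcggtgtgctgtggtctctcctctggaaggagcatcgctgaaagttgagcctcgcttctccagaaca
The NF-Y motif was found in the promoters of 5 of the 8 genes (Acly, Fasn, Insig1, Srebf1 and Thrsp), and 37.4% of all 32851 promoters hold it. In Fasn it occurred 3 times, with 2 of the matches overlapping on opposite strands. The E-box was found in Insig1 alone of the 8 (7.15% of all promoters). The sterol response element in this strict spelling was in none of the 8 and in 1.24% of all promoters. The GC box GGGCGG was in 3 of the 8 (Acly, Insig1 and Srebf1, against 35.7% of all), and TTCNNNGAA, the STAT5 motif, in none (8.30% of all). TGGGAA, the core of the motif bound by RBPJ, the DNA-binding partner of N1ICD, was in Acaca and Srebf1 (25.6% of all promoters). These matches describe letters in a window of 300 bases and not binding.

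Wells that passed 50000 reads and 1000 genes made up 86.98% of the 384 control wells and 73.7% of the 384 N1ICD-EGFP wells. Their depth had a median of 241888 reads (50048 to 608476) and 348469 reads (51736 to 615615), respectively. The median number of detected genes went the other way, 3598 against 2482. Each plate was clustered without the 10 members and without the other lipid genes, and clusters were named from marker lists. Luminal progenitor and secretory markers rose in the same control clusters, so these were joined as luminal progenitor/secretory-like cells. The class made up 62.6% of the kept control cells and 80.6% of the kept N1ICD-EGFP cells. On the N1ICD-EGFP plate its clusters of 58 and 38 cells had 2 and 1 of the 10 secretory markers raised. They had 6 and 4 luminal progenitor markers raised. The class therefore does not hold cells alike in secretory markers on both plates. Hormone-sensing-like cells numbered 65 and 7, immune-like cells 53 and 48, and basal-like cells 7 and 0. The sort and the wells left out can set these numbers. The eGFP row of the tables had 5 or more reads in 81 cells of the N1ICD-EGFP plate, all of them luminal progenitor/secretory-like, and in 0 cells of the control, where 55 cells had 1 to 4 reads. Levels are CPM, reads scaled to one common total per group. The 5 caseins summed to 31330 CPM in luminal progenitor/secretory-like control cells and to 190 CPM in hormone-sensing-like control cells. In the N1ICD-EGFP clusters of 58 and 38 cells they summed to 1018 and 84.2 CPM. In those of 69 and 63 cells they summed to 14608 and 6206 CPM. Adipocytes are the other cell type of the gland known for fat synthesis. Of their 7 markers Fabp4 was highest over all kept cells, at 78.3 CPM in 22 control cells and 137.5 CPM in 17 N1ICD-EGFP cells. Lep was at 0.593 and 2.70 CPM, in 3 and 6 cells, and Adipoq at 1.49 CPM in 2 control cells and in 0 cells of the N1ICD-EGFP plate. All 7 adipocyte markers together reached 2.47 CPM in luminal progenitor/secretory-like cells of the control (0 to 445 per cell) and 173.3 CPM in those of the N1ICD-EGFP plate (0 to 47801 per cell), with Adipoq and Cidec at 0 in the latter. Their part in the results was not tested.

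Because full-length protocols give longer transcripts more reads, levels of different genes were compared per kilobase of exon. In luminal progenitor/secretory-like control cells Scd1 was highest at 85.8 CPM per kilobase (exact Poisson 95% interval 84.6 to 86.95), followed by Acly at 53.8 and Srebf1 at 17.3. Elovl6 (12.4) and Fasn (11.6) came next, followed by Olah (4.05). Insig1 at 1.97 (1.76 to 2.21) had an interval that overlapped those of both Thrsp at 2.35 (2.08 to 2.66) and Scd2 at 1.74 (1.59 to 1.90), and Acaca was lowest at 0.920. Acaca shares 33.5% of its stretches of 31 bases with other genes, mainly the pseudogene Gm5182, so its count is uncertain. Scd1 shares 8.18% and Scd2 6.81% of theirs, mostly with Scd3. 5.18% of the stretches of Scd1 are also in Scd2, which lies in the same gene cluster on chromosome 19 (Scd1 at chr19:44394455-44407879, Scd2 at chr19:44293674-44306864, GRCm38). Fasn, Acly and Olah share none. All intervals here cover counting error only, since PCR copies without molecular identifiers are not independent molecules.

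Within luminal progenitor/secretory-like cells, the enzymes that make and release the fatty acid chain (Acly, Acaca, Fasn and Olah) and the desaturase Scd1 were at least 1.5 times lower on the N1ICD-EGFP plate, 5 of the 10 members. Thrsp alone was at least 1.5 times higher, from reads of 6 cells on each plate. For the regulators Srebf1 and Insig1 no order between the plates was set. Of all 11301 genes at 5 CPM or more in either plate, 13.9% were at least 1.5 times lower and 24.9% at least 1.5 times higher. The median log2 ratio of the members was -0.59, against 0.15 for all those genes. Ratios are of CPM plus a pseudocount of 1, N1ICD-EGFP over control. In sums over cells, fewer cells with the transcript and less transcript per cell cannot be told apart, so shares of cells are given as well, after thinning every cell to 50000 reads.

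Acly, at the entry of the pathway, was at 283.9 CPM in the control and 97.1 CPM on the N1ICD-EGFP plate, 2.92 times lower (interval of the ratio 2.86 to 2.99). Per cell its lowest, median and highest values were 0, 111.4 and 2145 CPM in the control and 0, 0 and 1144 CPM on the N1ICD-EGFP plate. The distributions overlapped, and the median cell of the N1ICD-EGFP plate had no read. After thinning Acly was read in 62.7% of control cells (Clopper-Pearson interval 55.7 to 69.3) and 29.8% of N1ICD-EGFP cells (23.96 to 36.2), and in the cells that had a read its median was 302.7 against 209.2 CPM. Over 17 alternative settings the log2 ratio of Acly, -1.54, stayed between -1.70 and -1.49, the narrowest range of the 5 lower members.

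Fasn, the multi-enzyme synthase, was at 126.5 CPM in the control and 61.97 CPM on the N1ICD-EGFP plate, 2.04 times lower (1.98 to 2.10). Its lowest, median and highest cells had 0, 12.5 and 882 CPM against 0, 0 and 1353 CPM, so the single highest cell was on the N1ICD-EGFP plate while the typical cell was lower. The thinned share of cells was 49.8% (42.8 to 56.7) against 27.2% (21.5 to 33.5). In well columns 1 to 12 alone the log2 ratio of Fasn was -0.51, short of 1.5 times. Acaca, the carboxylase, was at 15.7 and 7.62 CPM (log2 ratio -0.95), with 18.7% and 12.3% of thinned cells.

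Scd1, the first of the 2 desaturases among the members, had the highest sum of the 10 in the control, 420 CPM. On the N1ICD-EGFP plate it was at 130 CPM, 3.23 times lower (3.16 to 3.29). Cells ranged from 0 over a median of 66.4 to 12414 CPM in the control, and from 0 over 0 to 2037 CPM on the N1ICD-EGFP plate. The top control cell alone held 12.1% of the control's Scd1 reads. Without the cell with the most reads on each plate, and under every other setting run, the log2 ratio lay between -2.18 and -1.10. The thinned share of cells was 57.9% (50.9 to 64.7) against 25.4% (19.9 to 31.6).

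Olah, the thioesterase of medium-chain milk fat, was carried by few cells. It was read in 8 control cells, 3.83% of the class (7.16 CPM), and with 3 reads in 1 N1ICD-EGFP cell (0.0387 CPM). The ratio of 185.1 has a counting interval of 63.3 to 897, and 39.8% of the control reads came from 1 cell. The difference therefore rests on those 8 control cells.

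The other 5 members were not 1.5 times lower. Elovl6, the elongase, was at 79.8 CPM in the control and 68.5 CPM on the N1ICD-EGFP plate (log2 ratio -0.22), in 22.5% and 14.5% of thinned cells. Srebf1 was at 97.4 (94.7 to 100.2) and 108.6 CPM (106.3 to 110.99), and its log2 ratio of 0.16 stayed between -0.01 and 0.27 over the alternatives. Its share of thinned cells was lower on the N1ICD-EGFP plate (42.98% against 58.9%) while the median of the reading cells was higher (101.1 against 75.3 CPM), and no order is read from these opposed measures. Insig1 was at 6.10 and 6.24 CPM in 19 and 21 cells. Its log2 ratio of 0.03 ranged from -0.99 to 1.77 over the alternatives, so these data set no direction. Thrsp was at 5.15 and 9.63 CPM, in 6 cells of each plate, and 45.6% of its N1ICD-EGFP reads came from 1 cell. Its log2 ratio of 0.79 was short of 1.5 times with the stricter cell filter (0.36) and with the pseudocount of 5 (0.53). Without the top cell of each plate no member was 1.5 times higher.

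Scd2, the second desaturase, was at 9.51 CPM in the control and 12.9 CPM on the N1ICD-EGFP plate (log2 ratio 0.40, past 1.5 times in 3 settings with up to 0.91). It was read in 14 and 15 cells. On the N1ICD-EGFP plate it lay mostly in 1 of the 4 clusters of the class, at 74.98 CPM against at most 4.48 CPM in the other three. This cluster of 38 cells had no marker of its class among its 10 leading genes and carried fibroblast markers at 3685 CPM. Without it the log2 ratio of Scd2 turned to -2.07. The part of those markers in the result was not tested.

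**Figure D1:**
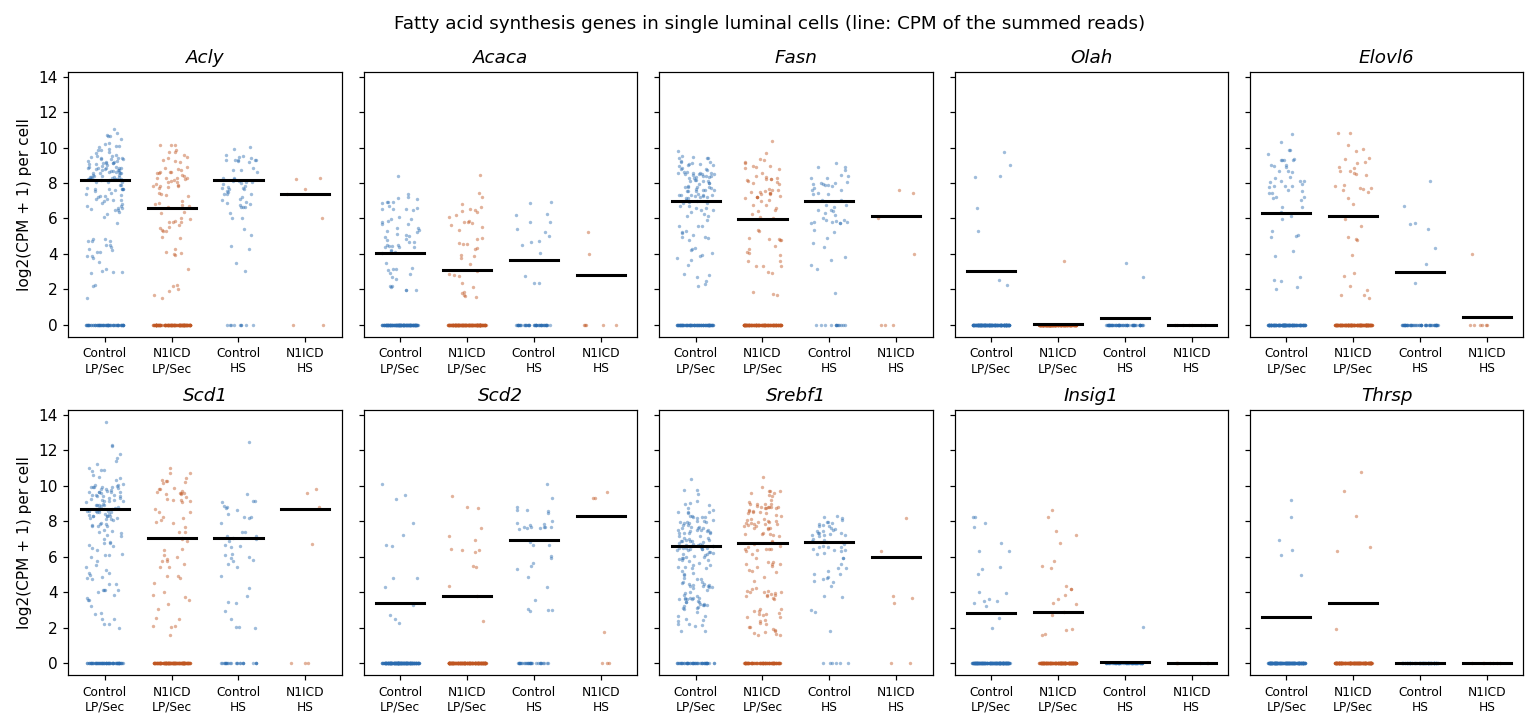
Level of each member in single luminal cells, as log2(CPM + 1) on the vertical axis, for luminal progenitor/secretory-like cells (LP/Sec) and hormone-sensing-like cells (HS) of the control (blue) and N1ICD-EGFP (orange) plates; each point is 1 cell and each black line the level of the summed reads. A larger share of N1ICD-EGFP than control LP/Sec cells lies at 0 for Acly, Fasn and Scd1, and also for Srebf1, Acaca and Elovl6. On the control plate Scd2 is read in 34 hormone-sensing-like against 14 luminal progenitor/secretory-like cells.

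The members were also read together less often per cell. After thinning, a luminal progenitor/secretory-like cell held reads of a mean of 2.89 of the 10 members in the control and 1.66 on the N1ICD-EGFP plate. None of the 10 was read in 4.31% and 18.4% of cells. Fewer genes of any kind were read per cell on the N1ICD-EGFP plate (a median of 2088 against 2936 after thinning). Among 5754 genes read in at least 20% of either plate's cells, the control share was a median of 1.30 times the N1ICD-EGFP share, and for 24.9% of genes it was at least 1.5 times. Of the 5 members that could be placed there, 4 (Acly, Fasn, Scd1 and Elovl6) were past 1.5 times, with ratios from 1.55 for Elovl6 to 2.28 for Scd1, and Srebf1 was at 1.37. Immune, fibroblast and basal marker sums in the class were 21.3, 17.6 and 72.5 CPM in the control and 74.2, 579 and 457 CPM on the N1ICD-EGFP plate. Their part in these differences, and that of the number of genes per cell, was not tested.

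**Figure D2:**
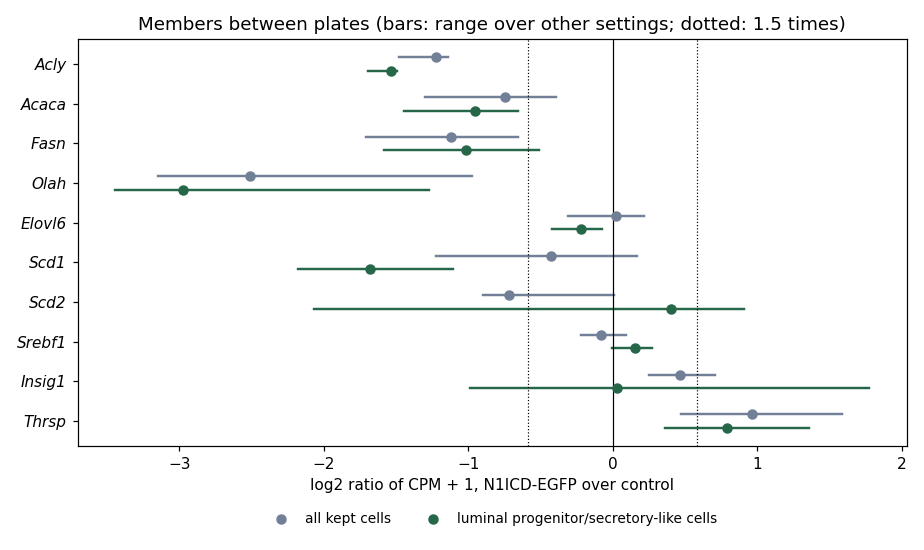
Log2 ratio of CPM + 1, N1ICD-EGFP over control, for each member in all kept cells (grey) and in luminal progenitor/secretory-like cells (green); points are the values reported, bars the range over the alternative settings and dotted lines 1.5 times. Acly, Acaca, Fasn and Olah lie left of 0 with their whole bars in both, Scd1 and Elovl6 in luminal progenitor/secretory-like cells only, and the bars of Scd2, Insig1 and, by 0.01, Srebf1 in luminal progenitor/secretory-like cells cross 0.

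Over all kept cells the picture differed for the desaturases. Again 5 members were at least 1.5 times lower (Acly, Acaca, Fasn, Olah and Scd2) and Thrsp at least 1.5 times higher, against 16.7% and 22.5% of all 12021 genes. The median log2 ratio was -0.57 for the members and 0.07 for all genes. Acly was at 267.6 and 114.3 CPM, Fasn at 119.95 and 54.6 CPM, and Acaca at 14.4 and 8.19 CPM. The log2 ratio of Acaca, -0.75, was short of 1.5 times in 4 of 12 settings: with the mean of per-cell CPM (-0.55), thinned (-0.49), with the pseudocount of 5 (-0.56) and in well columns 1 to 12 (-0.39). Olah was at 4.87 and 0.0308 CPM (15 cells against 1), and Thrsp at 3.46 and 7.67 CPM. Scd1 was at 315.1 and 233.9 CPM, a log2 ratio of -0.43, which lay between -1.22, without immune-like cells, and 0.16 over the settings. In the cells of the immune-like class it was at 210 CPM in the control (200 to 220) and 678 CPM on the N1ICD-EGFP plate (666 to 691), with the highest level, 1519 CPM, in a cluster of 25 cells led by B cell genes such as Cd79a, Cd79b and Ms4a1. The class was mixed in the control and does not hold like cells on both plates. Its median control cell had 193.8 CPM of immune and 4666 CPM of secretory markers, and 75.5% of its cells had an immune marker read. On the N1ICD-EGFP plate the medians were 13921 and 6.51 CPM. Fibroblast markers summed to 4023 CPM in the control class, and caseins to 6962 CPM there and 31.5 CPM on the N1ICD-EGFP plate. The part of these cells in the values of Scd1 was not tested. Scd2 was at 41.7 and 24.95 CPM, and its log2 ratio of -0.72 was 0.01 once cells with unusually many genes were left out and -0.54 in well columns 13 to 24. The other three stayed within 1.5 times: Elovl6 was at 55.3 and 56.1 CPM, Srebf1 at 98.5 and 93.2 CPM, and Insig1 at 6.24 and 8.98 CPM.

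In summed reads the 2 luminal classes of the control plate differed in the desaturases, Elovl6 and the less read members. They had like levels of Acly, Fasn and Srebf1. 5 members (Elovl6, Scd1, Olah, Insig1 and Thrsp) were at least 1.5 times higher in luminal progenitor/secretory-like than in hormone-sensing-like cells and 1, Scd2, at least 1.5 times lower. Of 11113 genes, 28.3% were that much higher and 27.7% that much lower. The class names rest on other genes, and the values are a description of cells of 1 plate, with 65 in the smaller class.

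On the control plate Acly, Fasn and Srebf1 stayed within 1.5 times between the classes in every setting run, and Acaca in most of them. Acly was at 283.9 CPM in luminal progenitor/secretory-like and 288.4 CPM in hormone-sensing-like cells (281.1 to 295.8). Fasn was at 126.5 and 123.7 CPM, Acaca at 15.7 and 11.5 CPM, and Srebf1 at 97.4 and 112.1 CPM. Their log2 ratios lay between -0.20 for Srebf1 and 0.42 for Acaca. That of Acaca was 1.36 without cells with unusually many genes and 0.72 in well columns 13 to 24, both past 1.5 times. In hormone-sensing-like cells the thinned shares were higher, 81.5% for Acly and 72.3% for Fasn, and these cells also had more genes read, a median of 4477 after thinning.

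The desaturases split by class. Scd1 was at 420 CPM in luminal progenitor/secretory-like cells and 133.99 CPM in hormone-sensing-like cells (129.1 to 139.1), 3.13 times higher in the former. Scd2 was at 9.51 CPM (8.67 to 10.4) and 121.7 CPM (116.998 to 126.5), 12.8 times higher in hormone-sensing-like cells. Per hormone-sensing-like cell Scd2 ran from 0 over a median of 6.91 to 1113 CPM, and 34 of 65 cells had a read (52.3%), against 14 (6.70%) of the luminal progenitor/secretory-like cells. Scd2 made up 47.6% of the reads of both desaturases in hormone-sensing-like and 2.22% in luminal progenitor/secretory-like control cells. 14 hormone-sensing-like cells had reads of Scd2 without Scd1, 22 of Scd1 without Scd2 and 20 of both.

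Elovl6 showed the opposite split to Scd2. It was at 79.8 CPM in luminal progenitor/secretory-like cells and 6.99 CPM (5.90 to 8.22) in hormone-sensing-like cells, 11.4 times higher in the former, and was read in 24.9% and 12.3% of cells. Olah was at 7.16 and 0.289 CPM, but was read in like shares of cells, 3.83% and 3.08%. 1 luminal progenitor/secretory-like cell held 39.8% of the Olah reads of its class. Insig1 had 1 read in the hormone-sensing-like cells, 6.10 against 0.0482 CPM (0.00122 to 0.269). Thrsp was unread in all 65 hormone-sensing-like cells, which by 3 counts of the total allows a share of cells with a read of up to 4.62% (Clopper-Pearson upper limit 5.52% after thinning) and sets no limit on cells that express it. Against the floor of 3 reads over that group, its luminal progenitor/secretory-like level of 5.15 CPM was at least 35.7-fold higher by counting error alone. That level came from 6 cells (2.87%), with 35.4% of the reads in 1 cell. Their share lies within the limit for the unread cells, so no difference in the share of cells with Thrsp is set. Over the alternatives the log2 ratio of Elovl6 lay between 2.82 and 6.16 and that of Scd2 between -4.25 and -2.63.

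**Figure D3:**
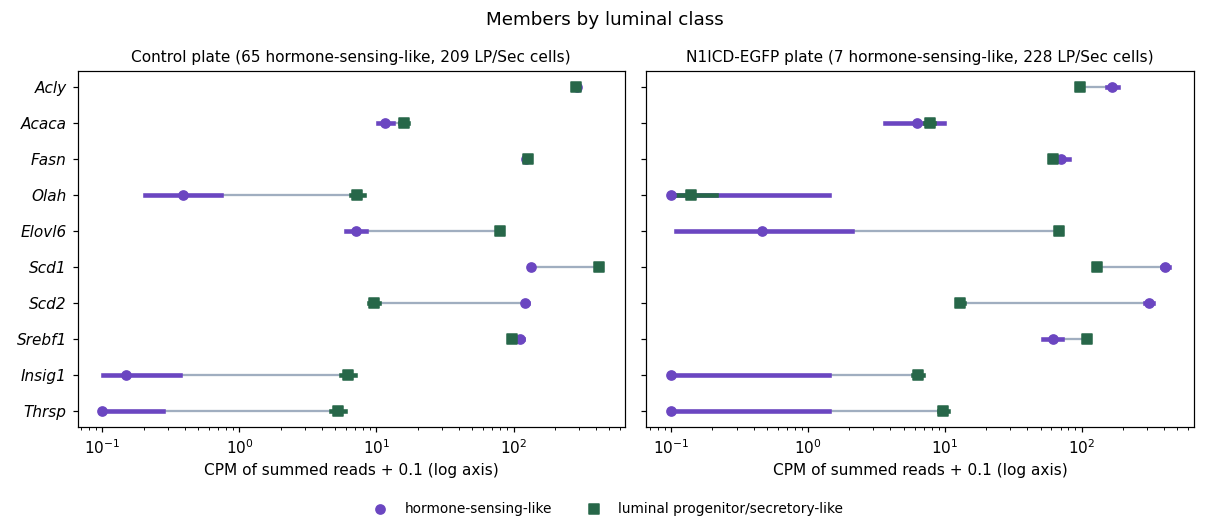
CPM of the summed reads of each member, on a log axis after adding a small constant, in hormone-sensing-like cells (purple circles) and luminal progenitor/secretory-like cells (green squares) of each plate; thick bars are exact Poisson intervals. On the control plate Acly, Fasn and Srebf1 nearly coincide, Scd2 lies far to the right in hormone-sensing-like cells, and Elovl6, Olah, Insig1 and Thrsp lie to the left there.

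The N1ICD-EGFP plate held only 7 hormone-sensing-like cells, and its values are given for these alone. Scd2 was at 309.1 CPM there and 12.9 CPM in luminal progenitor/secretory-like cells, and made up 43.1% and 9.01% of the desaturase reads. Elovl6 had 1 read in the 7 cells (0.360 CPM, 0.00912 to 2.01) and 68.5 CPM in the larger class. Scd1, at 407 CPM in the 7 cells and 130 CPM in the larger class, had the reverse order of the control plate. 1 of the 7 cells held 48.1% of its reads. Acly was at 167.2 and 97.1 CPM, Fasn at 70.3 and 61.97 CPM, and Srebf1 at 61.2 and 108.6 CPM. Past 1.5 times, 4 members (Elovl6, Srebf1, Insig1 and Thrsp) were higher in the larger class and 3 (Acly, Scd1 and Scd2) were lower. Insig1 and Thrsp were unread in the 7 cells, which by 3 counts allows a share of cells with a read of up to 42.9%. In the larger class they were read in 9.21% and 2.63% of cells, so no order is set for these 2. In well columns 1 to 12 the log2 ratio of Acly, -0.78, was -0.23 and short of 1.5 times. Of 11441 genes 47.7% were higher and 26.6% lower. In the 7 basal-like cells of the control plate Scd2 (97.8 CPM) and Fasn (107.7 CPM) were read, and Elovl6, Olah, Insig1 and Thrsp were not.

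The relation to milk protein reads was followed within luminal progenitor/secretory-like cells, ranking cells by the summed CPM of the 5 caseins. Casein CPM ran from 222.2 to 188369 in control cells, all of which had casein reads. It ran from 0 to 46370 on the N1ICD-EGFP plate, where 12.7% of cells had none. Member CPM were taken with casein reads out of the total. Over cells the mean of log2(CPM + 1) of the 10 members had a Spearman rho with casein CPM of 0.21 in the control, with n the 70, 69 and 70 cells of its 3 casein terciles, and 0.11 on the N1ICD-EGFP plate, with 76 cells in each tercile. Over single genes read in at least 20% of these cells, the median rho was -0.01 and 0.02 (6595 and 5363 genes). Of these genes 9.14% and 17.6% were at 0.1 or above. Scd2, Thrsp, Insig1 and Olah were not among them on either plate. The member score is a mean over 10 genes, so its rho is not of the same kind as theirs. The cells behind each rho share 1 plate, and the same member score had a rho of 0.25 and 0.53 with the number of genes read. These rho values are weak and are given as description.

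Srebf1 was higher in the tercile of cells with most casein on both plates. From the lowest over the middle to the highest tercile of casein CPM it was at 62.4, 77.9 and 161.02 CPM in the control (154.9 to 167.3 in the highest) and at 81.8, 63.8 and 180 CPM on the N1ICD-EGFP plate (174.9 to 185.2). The highest tercile was 2.58 and 2.20 times the lowest. Of the 10860 and 11710 genes compared, 22.8% in the control and 22.6% on the N1ICD-EGFP plate were at least 1.5 times higher in the highest tercile. The thinned share of cells with Srebf1 went from 50% to 70% and from 30.3% to 57.9%. With Csn2 alone as the measure of casein, its control rho was -0.01 and the log2 ratio of the terciles 0.24, so in the control the relation was seen with the sum of the caseins and not with Csn2. In control well columns 13 to 24 the rho was 0.05. On the N1ICD-EGFP plate Csn2 alone gave a rho of 0.25 and a log2 ratio of 1.06, and well columns 1 to 12 alone a log2 ratio of 0.38.

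In summed reads Acly went in opposite directions over the terciles of the 2 plates. Over cells its rho with casein CPM was weak, 0.18 in the control and -0.09 on the N1ICD-EGFP plate. In the control it was at 185.04 CPM in the lowest and 351.7 CPM in the highest casein tercile, and on the N1ICD-EGFP plate at 145.6 and 71.4 CPM. Acly was closest between the plates in their lowest terciles, but the terciles do not match: the lowest tercile of the control ran from 222.2 to 17938 casein CPM, and that of the N1ICD-EGFP plate from 0 to 13.95. The control log2 ratio of 0.92 was 0.21 in well columns 13 to 24 and 0.57 with Csn2 alone, short of 1.5 times in both, while on the N1ICD-EGFP plate the log2 ratio of -1.02 stayed between -1.13 and -0.61. The thinned shares of cells in the lowest and highest tercile had overlapping intervals. They were 51.4% (39.2 to 63.6) and 62.9% (50.5 to 74.1) in the control. On the N1ICD-EGFP plate they were 35.5% (24.9 to 47.3) and 28.9% (19.1 to 40.5). The difference between the plates in the relation of Acly to casein was not tested.

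Fasn was at 118.3 and 154.4 CPM in the lowest and highest tercile of the control, and at 54.4 and 73.4 CPM on the N1ICD-EGFP plate. It was lower on the N1ICD-EGFP plate in each tercile. Its log2 ratio of highest over lowest was past 1.5 times in control well columns 13 to 24 (0.84) and N1ICD-EGFP well columns 1 to 12 (0.97). From the lowest over the middle to the highest tercile Scd1 was at 405, 517.1 and 375.01 CPM in the control and at 150.2, 98.6 and 144.4 CPM on the N1ICD-EGFP plate, so the middle tercile was highest on one plate and lowest on the other. With Csn2 alone its control log2 ratio of highest over lowest was -0.76. Elovl6 went from 31.6 to 131.6 CPM in the control and from 52.2 to 64.1 CPM on the N1ICD-EGFP plate, and in the control the log2 ratio of 2.03 turned to -0.14 with Csn2 alone. Scd2 was at 36.4 CPM in the lowest and 0.721 CPM in the highest tercile of the N1ICD-EGFP plate. Without the cluster of 38 cells the log2 ratio of the terciles was -1.11 for Scd2 and 1.18 for Fasn there. Acaca was at 19.8, 14.1 and 14.9 CPM over the control terciles and at 3.10, 13.6 and 6.15 CPM on the N1ICD-EGFP plate, with no common order. Insig1, Olah and Thrsp were read in too few cells for an order to be given. Of the 10860 and 11710 genes compared, 22.2% in the control and 33.6% on the N1ICD-EGFP plate were at least 1.5 times lower in the highest tercile. Immune marker sums went from 24.7 CPM in the lowest to 18.9 CPM in the highest tercile of the control and from 102.7 to 59.4 CPM on the N1ICD-EGFP plate, and their part was not tested.

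**Figure D4:**
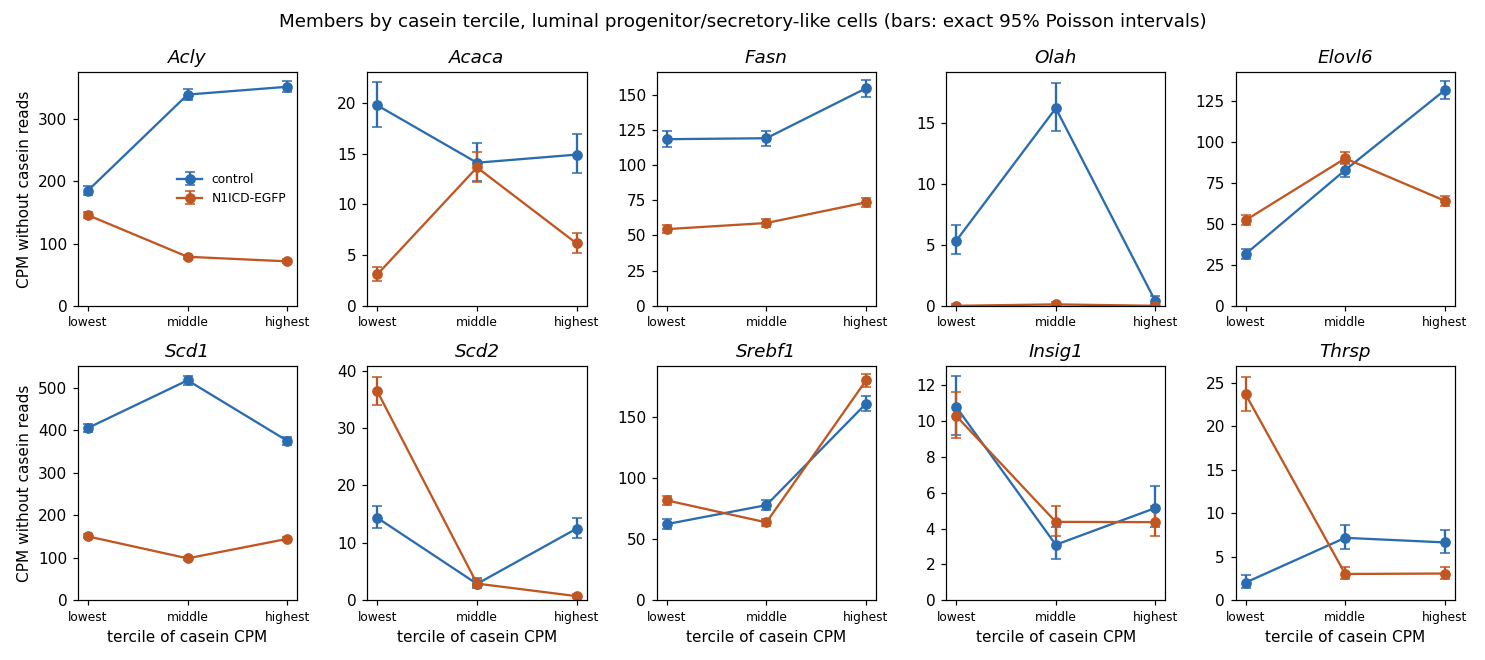
CPM of each member with casein reads out of the total (vertical axes from 0), in the lowest, middle and highest tercile of casein CPM of luminal progenitor/secretory-like cells of the control (blue) and N1ICD-EGFP (orange) plates; bars are exact Poisson 95% intervals. Srebf1 is highest in the highest tercile on both plates, Acly goes in opposite directions, and Fasn and Scd1 stay lower on the N1ICD-EGFP plate in every tercile.

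From cell to cell the members were only loosely tied to each other. Over the 45 pairs the median Spearman rho was 0.06 in control cells (32 pairs positive) and 0.02 on the N1ICD-EGFP plate (24 positive). The highest was 0.21, between Acaca and Elovl6 in the control, which were read together in 23 cells. Scd1 and Scd2 had a rho of 0.17 in the control and 0.20 on the N1ICD-EGFP plate, with the shared sequence given above. The genes outside the list most like the mean of the members, among those read in at least 20% of cells, were Acot1 (0.30), Deptor (0.28), Dbi (0.26), Hagh (0.26) and Dohh (0.26) in the control. Acot1 is an acyl-CoA thioesterase and Dbi the acyl-CoA-binding protein. On the N1ICD-EGFP plate they were Dctn6 (0.39), Nsmce2, Dynlt3, Cnn2 and Cd164. The first gene of each plate had a rho of 0.05 (Acot1) and 0.01 (Dctn6) on the other plate, and the median over all genes was 0.05 and 0.14.

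The lists of genes around the pathway had medians nearer to 0 than the members. Of all 11301 genes in luminal progenitor/secretory-like cells, 13.9% were at least 1.5 times lower and 24.9% higher. Of 17 other genes of fatty acid synthesis, elongation and desaturation in luminal progenitor/secretory-like cells, 2 were at least 1.5 times lower and 3 higher, with a median log2 ratio of 0.11. The lower ones were Acsl4, an acyl-CoA synthetase, at 36.8 and 13.9 CPM, and Me1, the malic enzyme that supplies NADPH, at 147.6 and 74.7 CPM. The higher ones were Acacb at 4.27 and 17.6 CPM, Slc25a1 at 38.4 and 70.1 CPM, and Mcat at 20.2 and 34.3 CPM. Of 18 regulators measured, 4 were lower and 3 higher (median -0.04). Lpin1, a phosphatidate phosphatase and coregulator, was at 113.7 and 42.4 CPM, Prkaa1, the AMP kinase subunit, at 61.7 and 27.2 CPM, and Nfya, an NF-Y subunit, at 9.43 and 3.70 CPM. Nr1h2, the liver X receptor beta, was at 75.6 and 120 CPM and Usf1, an E-box factor, at 24.5 and 39.4 CPM. Of 8 NADPH genes 1 (Me1) was lower and 2 higher, among them Taldo1 of the pentose phosphate pathway at 283.2 and 495 CPM.

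The genes of cholesterol synthesis, which the related factor SREBP-2 controls, lay between. Of 19 measured, 7 were at least 1.5 times lower and 4 higher, against 13.9% and 24.9% of all genes. The median log2 ratio of the list was -0.19. Among the lower ones were Hmgcs1, at the start of the pathway, at 57.9 and 32.95 CPM, Sqle, the squalene epoxidase, at 77.7 and 44.9 CPM, and Sc5d, near its end, at 92.6 and 51.7 CPM. Higher were Mvk at 4.25 and 14.3 CPM and Pmvk at 25.8 and 54.2 CPM. So were Dhcr7 at 18.1 and 41.7 CPM and Fdps at 9.49 and 15.04 CPM. All 4 caseins measured were lower, with a median log2 ratio of -2.31, beyond that of the 10 members. Over all kept cells the medians were -0.07 for the other fatty acid genes, 0.03 for the regulators, -0.30 for cholesterol synthesis and -0.0043 for NADPH supply.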

How the data were processed

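Smart-Seq2 libraries of single sorted mammary cells were sequenced on a HiSeq2500, per the labels' protocols. The authors deposited raw read counts for each gene in each well, made with STAR on mm10, per the submitters' processing notes. Versions, counting tool, annotation and strand setting: not given in the sources used here. Both tables held 24490 rows. 492 rows repeating a gene name were summed by name, and eGFP was kept out of the gene table. Hacd3 of the lists was matched under its RefSeq synonym Ptplad1.

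Wells with at least 50000 reads and 1000 genes were kept. Reads of a group were summed and scaled to CPM. Ratios are log2 of CPM + 1, and folds are plain ratios of CPM. Sums have exact Poisson and shares Clopper-Pearson 95% intervals. Where a group had 0 reads, a fold was taken against 3 counts over that group. Wells held single sorted cells, so doublets were not called, and an alternative left out cells with genes over 3 median absolute deviations above the plate median. The total reads per cell (50048 to 615615) limit the precision for genes of few reads.

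Each plate was clustered with Leiden (2000 variable genes, 15 components, 15 neighbours, resolution 0.8, seed 0), leaving out members and lipid lists. A cluster took the class with the most raised markers, at least 3. Raised meant a read in 20% of its cells and a level 1 log2 unit above the mean of clusters. The naming rule was set with the data known, and rebuilt names may differ from those of the study.

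The members and lists were chosen with earlier results of these data known. With 1 sample per group there was no test, and at least 1.5 times is a rule of size. All 10 members are named throughout, as are up to 3 genes per list and direction with the largest ratio, at 5 CPM or more, past 1.5 times and read in 20% of the cells of the higher group. The higher genes of the other fatty acid list and the cholesterol list missed the limit of 20% and are named as well. The 5 genes most alike follow Spearman rho with the mean of the members, without predicted and ribosomal protein genes. Exon lengths and gene positions are from GENCODE for GRCm38, promoters from RefSeq for GRCm38.p6. The procedure was tested on simulated data. Tools were python 3.11.15, numpy 2.4.6, pandas 2.3.3, scipy 1.17.1, scanpy 1.11.5, leidenalg 0.10.2 and matplotlib 3.10.9. Alternatives covered cell filters, doublets, depth, scaling, pseudocount, well columns, clustering and the measure of casein. 6 were added after seeing the data: leaving out 1 N1ICD-EGFP cluster (for 3 results), leaving out the cell with most reads (for 2), and leaving out immune-like cells.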

Additional observations from a re-analysis of the deposited data

How the results depend on the processing

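No paired analysis was possible because each genotype has 1 plate and the wells carry no shared replicate. For the same reason no replicate was left out, and there is no test.

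Between plates, the number of members at least 1.5 times lower was 4 to 6 in every setting. Over all kept cells the number higher, 1, was 0 with the stricter cell filter or the pseudocount of 5 and 2 without the cell with most reads. Their median log2 ratio, -0.57, was -0.64 with the stricter filter, -0.59 with median-of-ratios scaling or without casein reads in the total, -0.77 in well columns 13 to 24 and -0.88 without immune-like cells. In luminal progenitor/secretory-like cells the number higher was 2 without possible doublets, 0 with the pseudocount of 5 or without the top cell, and 3 in well columns 1 to 12. There the median, -0.59, lies at the limit of 1.5 times. It was short of it with the stricter filter (-0.57), without possible doublets (-0.52), with the mean of per-cell CPM (-0.56), thinned (-0.54), with the pseudocount of 5 (-0.46), in well columns 1 to 12 (-0.34), at resolution 0.5 (-0.58) and 1.2 (-0.55) and clustered with all genes (-0.58).

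Scd2 turned to 0.010 over all kept cells without possible doublets and to -2.07 in luminal progenitor/secretory-like cells without the N1ICD-EGFP cluster of 38 cells. Insig1 turned to -0.99 in well columns 13 to 24.

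The rho of the member score with casein was 0.088 in the control with Csn2 alone, and on the N1ICD-EGFP plate 0.076 with the stricter filter and 0.096 with both plates clustered together. In the control, Csn2 alone turned the rho of Elovl6 to -0.0058, of Srebf1 to -0.014 and of Olah to 0.18, and the log2 ratio of the terciles of Elovl6 to -0.14 and of Olah to 4.39. On the N1ICD-EGFP plate it turned that of Acaca to -0.45. Well columns 1 to 12 turned the control values of Scd2 (rho 0.12, terciles 3.98) and Insig1 (terciles 0.90) and that of Elovl6 on the N1ICD-EGFP plate (-0.87). Well columns 13 to 24 turned Olah (1.83), and clustering both plates together turned Insig1 (0.015). The cause of these shifts was not tested. Between luminal classes no log2 ratio past 1.5 times changed sign in the settings run, while smaller ones did: in the control Fasn ranged from -0.27 to 0.28 and Acly from -0.49 to 0.35, and on the N1ICD-EGFP plate Fasn from -0.26 to 0.36. Few reading cells limit Olah, Thrsp, Insig1 and Scd2.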

Other observations

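On the N1ICD-EGFP plate, luminal progenitor/secretory-like cells were set apart by the reads of the eGFP row. 81 cells had 5 or more eGFP reads (median depth 401795 reads), 11 had 1 to 4, and the rest had none (310163 reads). Scd1 was at 185.96 CPM (181.2 to 190.8) in those with 5 or more and 93.8 CPM (90.8 to 96.8) in those with none, and Srebf1 at 120 and 90.6 CPM. Acly was nearly level, at 97.4 and 90.2 CPM, and Fasn was at 52.8 and 67.3 CPM. The 11 cells with 1 to 4 reads did not lie between these sets. Scd1 was lower there, at 68.95 CPM. Srebf1, Acly and Fasn were higher there, at 190.9, 158.05 and 77.5 CPM. The level of Acly and Fasn in each set lay under that of the control, 283.9 and 126.5 CPM. An unread eGFP row does not show that a cell lacked the transgene, and depth moves with the split.

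Outside the luminal cells, Scd1 reached 1519 CPM in the 25 immune-like cells of the N1ICD-EGFP plate led by Cd79a, Cd79b and Ms4a1, while Fasn was at 9.99 CPM and Elovl6 was unread there. The 15 cells led by Lyz2 and Csf1r and the 8 led by Lat and Lck had no Scd1 read, and Scd2 was at 32.3 CPM in the former. Acly was at 283.3, 110.7 and 80.9 CPM in the 3 clusters. Scd3 and Scd4, the other mouse desaturases of this family, were at 1.80 and 0.284 CPM over all control cells and at 1.22 and 0.0719 CPM on the N1ICD-EGFP plate.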
